A study of Mus musculus with 2 samples.

Results

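The 10 core circadian clock genes Arntl, Clock, Per1, Per2, Per3, Cry1, Cry2, Nr1d1, Nr1d2 and Dbp were described in RNA of the whole mouse adrenal gland. They were chosen by name from 55536 annotated genes, by matching their symbols to gene identifiers of GENCODE M21, and each symbol matched 1 gene. The study sequenced total RNA from 2 adult male mice of strain B6CASTF1/J, the F1 hybrid of a C57BL/6J and a CAST/EiJ parent, aged 8 to 10 months. The labels name 1 group, with replicate 2 (animal 4) and replicate 1 (animal 2), and name no treatment, allele or hour of collection. Each library is 1 animal, at a time of day that is not given in the sources used here. Genes were compared within a gland, and the gland of replicate 2 was set beside that of replicate 1. The deposited values rest on the mm10 reference, which is of C57BL/6J, and any effect of CAST/EiJ variants on mapping was not tested.

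The circadian clock is a transcriptional feedback loop that runs in nearly every cell and is set in peripheral organs by signals that include glucocorticoids. ARNTL (also called BMAL1) and CLOCK form a dimer that binds E-box sequences and activates the Per, Cry, Nr1d and Dbp genes. PER and CRY proteins return to the nucleus and inhibit that dimer, while NR1D1 and NR1D2 (REV-ERB alpha and beta) repress Arntl at ROR elements, where ROR receptors activate it. In rodents the adrenal clock is known to gate the response of the cortex to ACTH and so to shape the daily corticosterone rhythm.

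The control sequences of this loop can be read in the promoters. RefSeq promoter windows on GRCm38.p6, the same assembly as mm10, run from 250 bases before to 50 bases after an annotated start and were found for 9 of the 10 genes, in 13 windows. The 6 windows below belong to genes whose transcript starts or differences between the glands are described further on. They are given 5′ to 3′ on the gene's strand, with matches to the searched motifs in capitals.
Arntl, chr7:113207261-113207560, plus strand: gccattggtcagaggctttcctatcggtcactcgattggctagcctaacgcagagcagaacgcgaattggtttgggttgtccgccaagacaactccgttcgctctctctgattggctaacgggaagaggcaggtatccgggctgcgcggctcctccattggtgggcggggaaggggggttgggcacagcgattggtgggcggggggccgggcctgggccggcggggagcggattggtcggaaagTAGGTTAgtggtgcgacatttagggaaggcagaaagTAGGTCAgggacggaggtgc
Per1, chr11:69098699-69098998, plus strand: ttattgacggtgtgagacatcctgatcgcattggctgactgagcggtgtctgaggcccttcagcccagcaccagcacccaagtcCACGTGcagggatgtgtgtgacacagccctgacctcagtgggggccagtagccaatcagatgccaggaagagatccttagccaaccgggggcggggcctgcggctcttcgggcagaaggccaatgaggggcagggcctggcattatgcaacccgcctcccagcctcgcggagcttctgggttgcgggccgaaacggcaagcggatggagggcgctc
Per1, chr11:69099902-69100201, plus strand: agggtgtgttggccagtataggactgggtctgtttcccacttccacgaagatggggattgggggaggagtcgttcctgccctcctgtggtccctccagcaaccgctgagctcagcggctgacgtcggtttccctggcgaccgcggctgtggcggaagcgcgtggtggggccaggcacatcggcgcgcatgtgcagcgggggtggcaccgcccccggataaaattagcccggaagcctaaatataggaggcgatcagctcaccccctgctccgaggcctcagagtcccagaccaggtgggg
Per3, chr4:151044616-151044915, minus strand: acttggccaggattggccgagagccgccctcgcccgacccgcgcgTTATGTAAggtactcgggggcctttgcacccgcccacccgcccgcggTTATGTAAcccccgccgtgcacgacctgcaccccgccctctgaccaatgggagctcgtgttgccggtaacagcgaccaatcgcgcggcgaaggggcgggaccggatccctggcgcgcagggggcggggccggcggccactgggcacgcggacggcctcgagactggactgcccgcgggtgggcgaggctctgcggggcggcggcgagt
Cry1, chr10:85185005-85185304, minus strand: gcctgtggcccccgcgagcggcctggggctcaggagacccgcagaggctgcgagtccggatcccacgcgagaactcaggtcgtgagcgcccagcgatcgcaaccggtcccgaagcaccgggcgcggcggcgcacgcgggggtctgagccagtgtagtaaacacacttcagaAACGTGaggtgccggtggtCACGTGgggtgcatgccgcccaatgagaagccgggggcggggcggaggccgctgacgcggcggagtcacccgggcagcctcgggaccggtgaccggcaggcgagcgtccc
Nr1d1, chr11:98775328-98775627, minus strand: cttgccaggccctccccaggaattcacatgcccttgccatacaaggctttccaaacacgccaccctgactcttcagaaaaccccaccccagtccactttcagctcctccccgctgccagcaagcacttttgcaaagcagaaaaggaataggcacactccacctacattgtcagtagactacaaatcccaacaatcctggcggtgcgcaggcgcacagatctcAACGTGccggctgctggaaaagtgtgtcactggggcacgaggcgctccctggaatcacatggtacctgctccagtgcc

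Motifs were searched on both strands, no 2 matches overlapped, and positions count from 0 at the RefSeq start site to the left base of the match. The E-box CACGTG was found at -60 in Cry1 and at -166 in the upstream of the Per1 windows, and its variant CACGTT at -79 in Cry1, -28 in Nr1d1 and -166 in Cry2. The D-box, the site of DBP and its relatives, was searched as TTATGTAA or TTACGTAA and was found at -205 and -158 in Per3. The ROR element, searched as TAGGTCA or TAGGTTA, was found at -6 and 30 in the Arntl window printed above, and the other Arntl window holds the first of these matches at 40. Of all 32851 windows in the table, 7.15% hold the E-box, 4.68% its variant, 1.06% the D-box and 4% the ROR element. The 3 Clock windows, the windows of Dbp and Nr1d2 and the downstream Per1 window hold none of these letters. The matches are descriptions of sequence and were not tested for binding.

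The libraries held 33987434 expected counts on annotated genes in replicate 2 and 29994901 in replicate 1. Both carried the defining genes of the labelled organ, with 8 of 8 adrenal cortex markers and 8 of 8 chromaffin markers of the medulla at 1 TPM or more in both glands. TPM, the relative transcript abundance per library, divides reads by transcript length, so levels of different genes can be compared on that scale. The deposited posterior standard deviation of the count, which covers only the sharing of reads between genes in that model, was 0 for 9 of the 10 genes and at most 1.21 counts, for Nr1d2. Counts by kallisto could differ more, as for Per3, at 2468 in replicate 2 and 1683 in replicate 1, beside 2070 and 1360 by RSEM. All 10 genes were above 1 TPM in both libraries and had a mean of at least 100 counts.

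Of the activators, Clock had similar TPM in both glands and Arntl did not. Arntl (ENSMUSG00000055116.8, chromosome 7, 113207465 to 113314126, plus strand) stood at 4.54 TPM in replicate 2 and 8.00 TPM in replicate 1, from 362 and 634 expected counts in those glands. Clock (chromosome 5, 76209868 to 76304792, minus strand) stood at 16.9 TPM in replicate 2 and 17.9 TPM in replicate 1. Arntl was therefore the lower of the dimer partners in each gland, at 6.27 ± 2.45 TPM (SD, n = 2) beside 17.4 ± 0.750 TPM for Clock. Among 12385 coding genes detected in both glands, Arntl exceeded 18.7% in replicate 2 and 36.0% in replicate 1, and Clock 57.1% and 62.2% in the same order.

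The Per genes, which encode components of the repressor complex, lay closer to each other in replicate 2 than in replicate 1. Per2 (chromosome 1, 91415982 to 91459324, minus strand) stood at 15.9 TPM in replicate 2 and 24.2 TPM in replicate 1. Per3 (chromosome 4, 151003652 to 151044665, minus strand) went the other way, at 15.1 TPM in replicate 2 and 11.5 TPM in replicate 1. Per1 (chromosome 11, 69095217 to 69109960, plus strand), which glucocorticoids and cAMP are known to induce, stood at 13.9 TPM in replicate 2 and 16.2 TPM in replicate 1. Per2 had the highest level of the 3 in each gland, whereas the order of Per1 and Per3 was opposite in the 2 glands.

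The cryptochromes, the other component of the repressor complex, were unequal. Cry2 (chromosome 2, 92403646 to 92434043, minus strand) stood at 16.8 TPM in replicate 2 and 15.8 TPM in replicate 1. Cry1 (chromosome 10, 85131700 to 85185064, minus strand) was the lowest of the 10 genes in both glands, at 2.75 TPM in replicate 2 and 4.17 TPM in replicate 1, from 224 and 314 counts in those glands. Cry1 thus lay near Arntl and far from Cry2, at 3.46 ± 1.00 against 16.3 ± 0.707 TPM (SD, n = 2).

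The REV-ERB receptor genes and Dbp were the most abundant. Nr1d1 (ENSMUSG00000020889.11, chromosome 11, 98767932 to 98775333, minus strand) stood at 106 TPM in replicate 2 and 87.8 TPM in replicate 1. Nr1d2 (chromosome 14, 18204054 to 18239127, minus strand) stood at 48.1 TPM in replicate 2 and 39.2 TPM in replicate 1. Dbp (ENSMUSG00000059824.12, chromosome 7, 45705088 to 45710203, plus strand), a PAR bZIP factor that carries clock output to D-box genes, stood at 153 TPM in replicate 2 and 118 TPM in replicate 1. Dbp exceeded 97.4% of detected coding genes in replicate 2 and 96.7% in replicate 1, and Nr1d1 95.8% and 95.01%.

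**Figure D1:**
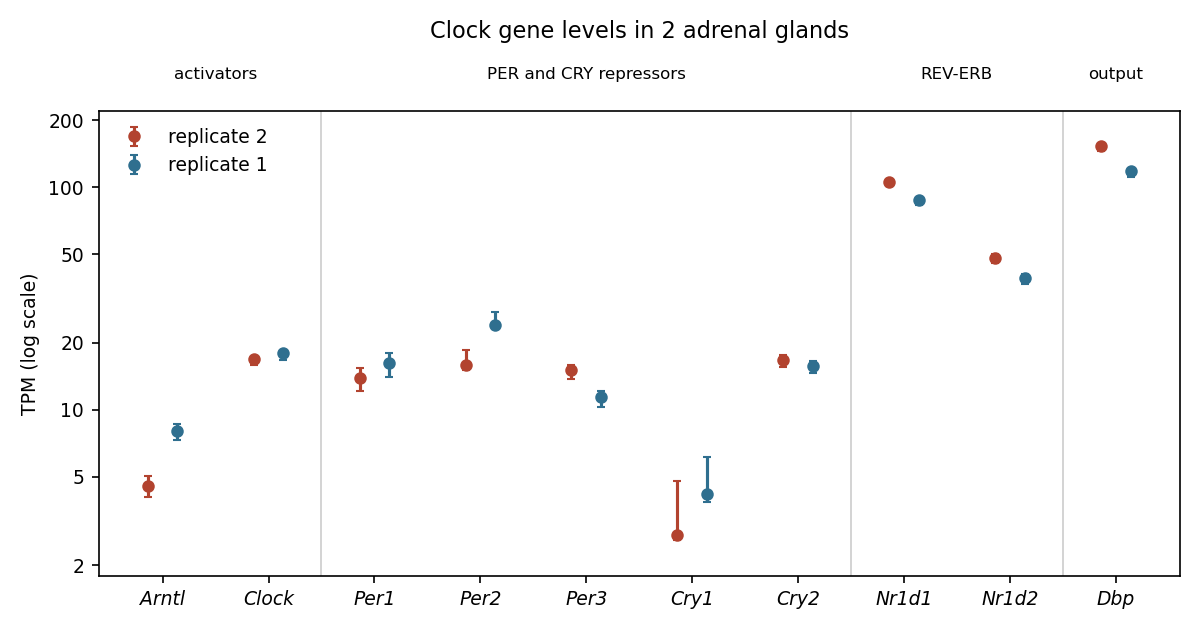
TPM of the 10 clock genes on a log axis in replicate 2 (left point of each pair) and replicate 1 (right point), 1 animal each. Bars are the deposited credibility bounds of the TPM, and Dbp, Nr1d1 and Nr1d2 stand above the other 7 genes in both glands.

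Dbp, Nr1d1 and Nr1d2 led in that order in both glands, with deposited credibility bounds that did not overlap between neighbours. In replicate 2 the next genes, Clock, Cry2, Per2, Per3 and Per1, ran from 16.9 to 13.9 TPM, and each gene's bounds overlapped those of the next. In replicate 1 Per2 followed Nr1d2 and stood apart, Clock, Per1 and Cry2 overlapped in turn from 17.9 to 15.8 TPM, and Per3 lay below them. Arntl and Cry1 were the lowest genes in both glands, with bounds that overlapped in replicate 2 (4.07 to 5.07 and 2.61 to 4.81 TPM) but not in replicate 1 (7.32 to 8.64 and 3.86 to 6.14 TPM). Over both animals Per2 averaged 20.1 ± 5.81 TPM and Per1 15.1 ± 1.63 TPM (SD, n = 2), so the SD of Per2 exceeded the distance between these means.

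Set against each other within a library, the activators lay far below the REV-ERB genes and above Cry1, and Clock lay close to Cry2. The median of the 2 activators was 10.7 TPM in replicate 2 and 13.0 TPM in replicate 1, and the median of the 7 repressor genes 15.9 and 16.2 TPM in those glands. The log2 ratio of activators over repressors was -0.57 in replicate 2 and -0.32 in replicate 1, with a mean of -0.45 ± 0.18 (SD, n = 2), and with geometric means in place of medians it was -0.89. An exact paired permutation over 2 animals cannot give a two-sided p below 0.5, so none was run.

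The margin differed widely among pairs. Arntl was at 0.0427 of the level of Nr1d1, its direct repressor, in replicate 2 and at 0.0911 in replicate 1. Against Dbp it was at 0.0297 in replicate 2 and 0.0677 in replicate 1, so the gap between these genes was wider in replicate 2. Clock over Nr1d1 was 0.159 in replicate 2 and 0.204 in replicate 1. By contrast Clock lay close to Cry2 (1.00 in replicate 2, 1.13 in replicate 1) and, by RSEM, to Per1 (1.21 and 1.10), and both activators exceeded Cry1. By kallisto, Clock stood at 14.3 TPM in replicate 2 and 15.2 TPM in replicate 1, and Per1 farther below it at 9.49 and 10.9 TPM. Arntl over Cry1 was 1.65 in replicate 2 and 1.92 in replicate 1, and Clock over Cry1 was 6.13 and 4.30. The bounds of Arntl and Cry1 overlapped in replicate 2. The ratios to Cry1 also depend on the quantifier, since by kallisto Cry1 was at 3.34 TPM in replicate 2 and 3.08 TPM in replicate 1.

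Between the glands, Arntl, Per2 and Cry1 were lower in replicate 2, and Per3, Dbp and the REV-ERB genes were higher there by less. For this comparison, expected counts were scaled with TMM factors, and a gene was counted as differing where its mean was at least 100 counts, the fold at least 1.5 and the exact binomial 95% interval excluded 1. Of 12853 nuclear genes with enough counts, 3.72% were lower and 6.4% higher in replicate 2 by this rule. Of the 10 clock genes 3 were lower (Arntl, Per2 and Cry1) and 0 higher. At 2-fold the background was 1.11% lower and 2.4% higher, and 1 clock gene, Arntl, was lower. With a single animal per side the differences have no replicate check, and the intervals cover counting error only.

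Arntl was 2.04-fold lower in replicate 2 (interval 1.79 to 2.32), a lower log2 ratio than all but 0.903% of the genes compared. Per2 was 1.64-fold lower (1.56 to 1.72) and Cry1 1.63-fold lower (1.37 to 1.94). Clock, the partner of Arntl, was 1.16-fold lower (1.10 to 1.21). On the other side Per3 was 1.31-fold higher in replicate 2 (1.22 to 1.40), Dbp 1.23-fold (1.18 to 1.27), Nr1d2 1.12-fold (1.08 to 1.17) and Nr1d1 1.09-fold (1.06 to 1.13). Replicate 2 over replicate 1, Per1 had a fold of 0.940 (0.870 to 1.01) and Cry2 one of 0.958 (0.892 to 1.03), and both intervals included equality.

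The split did not follow the roles. Both activators had log2 ratios of CPM + 1 below 0, with a median of -0.59, but of the 7 repressors 3 lay above 0 and 4 below, from -0.71 for Per2 to 0.38 for Per3. The median of the repressors was -0.06, and that of all 12853 genes 0.01. On the deposited TPM the repressor median was 0.09, with all genes shifted to 0.11. Cry2 changed sign with the scaling, at 0.01 with spike-in counts and 0.09 on TPM. For each of the other 9 genes the sign was the same in all 8 settings tried, although the kallisto TPM of Cry1, given with its transcripts, had the opposite order.

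**Figure D2:**
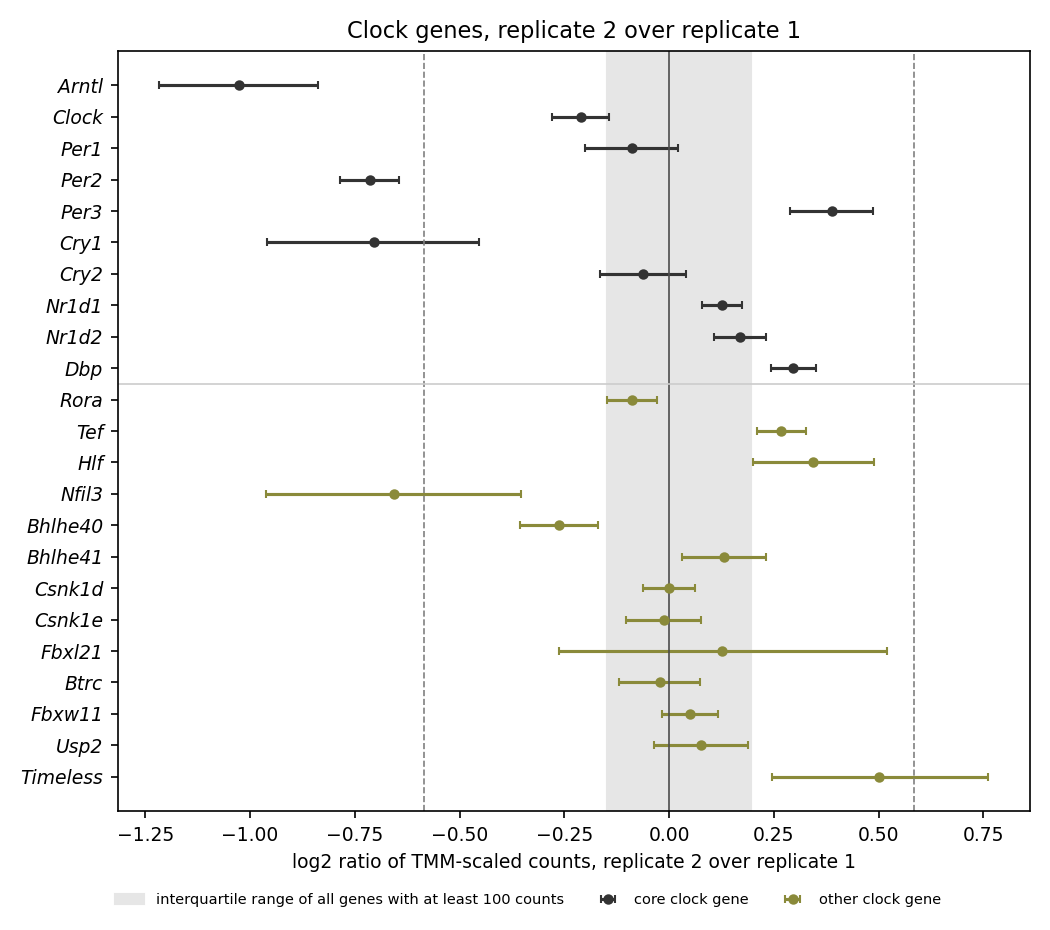
Log2 ratio of TMM-scaled counts, replicate 2 over replicate 1, with exact binomial 95% intervals, for the 10 clock genes (dark) and 13 other clock genes with at least 100 counts (olive). Dashed lines mark 1.5-fold and the grey band the interquartile range of all genes (-0.15 to 0.20). Arntl, Per2, Cry1 and Nfil3 lie beyond the left line.

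**Figure D3:**
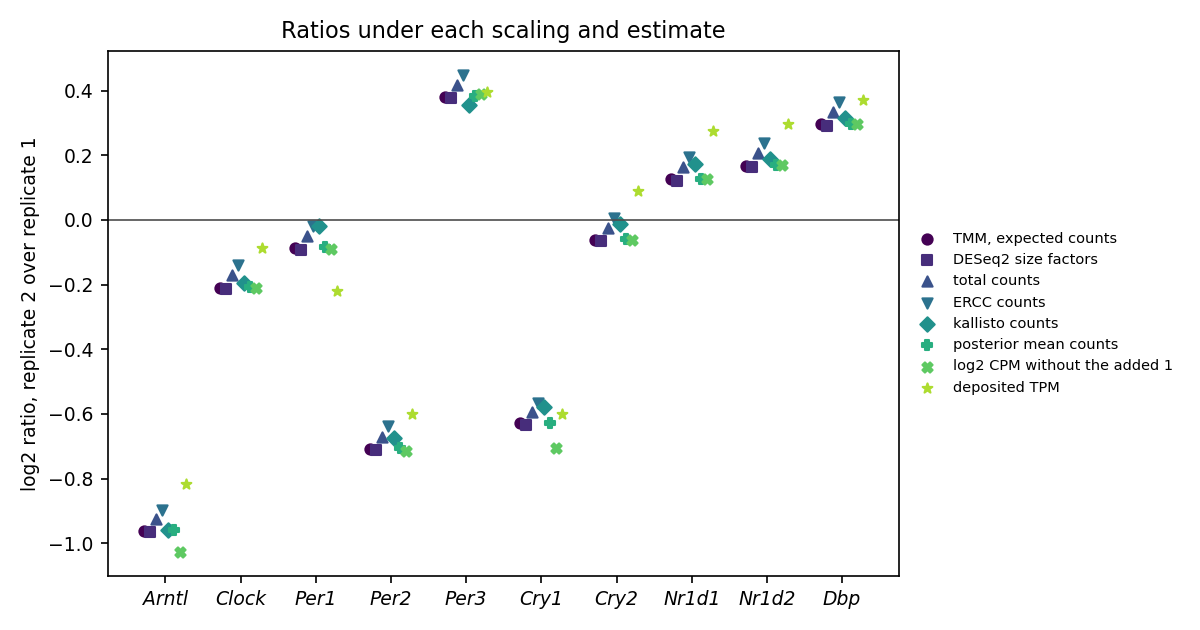
Log2 ratio, replicate 2 over replicate 1, of each clock gene under 8 scalings or estimates (legend). The points of Arntl run from -1.03 to -0.82 and those of Dbp from 0.29 to 0.37, while those of Cry2 lie on both sides of 0.

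The glands also differed in their makeup, and its part in these differences was not tested. The 8 adipocyte markers were all higher in replicate 2 and summed to 2079 TPM there and 240.5 TPM in replicate 1. The 5 brown adipocyte markers summed to 282 TPM in replicate 2 and 26.9 TPM in replicate 1. Only 2 of these 5 reached 1 TPM in both glands, and Ucp1 was at 0.14 TPM in replicate 1, from 6 counts. Fibroblast markers (5 of 5 higher, 234.6 and 131 TPM), macrophage markers (7 of 8 higher, 332 and 209 TPM) and red cell markers (5 of 5 higher, 2285 and 1396 TPM) were also higher in replicate 2. The numbers of markers higher or lower here are by TMM-scaled counts. On that scale all 8 adrenal cortex markers and 6 of 8 chromaffin markers were lower in replicate 2. The cortex markers summed to 18708 TPM in replicate 2 and 22912 TPM in replicate 1, and the chromaffin markers to 2302 and 3194 TPM. On TPM, Hsd3b1 of the cortex list (5325 and 5140) and Cd14 of the macrophage list (7.47 and 7.21) were higher in replicate 2. Endothelium markers (2 of 6 higher) summed to 328 TPM in replicate 2 and 323 TPM in replicate 1. No marker of these lists was listed at 0 in either gland. In whole tissue, fewer cells of a type and less RNA per cell cannot be told apart.

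A further 19 genes of the clock network were examined as a list, of which 17 reached 1 TPM in both glands. With at least 100 counts 15 could be compared, and 1 of them, Nfil3, was lower in replicate 2 past the 1.5-fold rule, with 0 higher, beside the background of 3.72% lower and 6.4% higher. Nfil3, which competes with DBP for D-boxes as a repressor, stood at 2.73 TPM in replicate 2 and 3.97 TPM in replicate 1, and was 1.58-fold lower (1.28 to 1.95). The relatives of Dbp were higher in replicate 2, Tef by 1.20-fold (1.16 to 1.25; 67.0 TPM in replicate 2 and 52.2 in replicate 1) and Hlf by 1.27-fold (1.15 to 1.40; 7.10 and 4.62 TPM). Ciart, which encodes a repressor of the ARNTL and CLOCK dimer, was under the count minimum, with 108 counts in replicate 2 against 45 in replicate 1 (2.06-fold, 1.44 to 2.99).

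Receptor and kinase genes that act on the loop were also compared. Rora, an activator at ROR elements, stood at 27.0 TPM in replicate 2 and 35.9 TPM in replicate 1, and its scaled counts were 1.06-fold lower (1.02 to 1.11). Its relative Rorb was below 1 TPM in both glands and under the count minimum, with 68 counts in replicate 2 and 88 in replicate 1, and was 1.51-fold lower (1.08 to 2.10). Csnk1d and Csnk1e, kinases that mark PER for degradation, had folds of 1.00 (0.958 to 1.04) and 0.991 (0.931 to 1.05), replicate 2 over replicate 1. Npas2, which can stand in for CLOCK, was at 0.570 TPM in both glands, and the paralog Arntl2 at 1.47 TPM in replicate 2 and 1.01 in replicate 1.

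The transcript tables split several of these levels among annotated transcripts of unlike classes. The shares are estimates, and whether reads on retained-intron transcripts came from unspliced RNA was not tested. Per3 also lies inside Camta1 on the same strand, and whether unspliced Camta1 RNA added to its shares was not tested. In the RSEM-format tables, coding transcripts took 100% of the gene's TPM for Per1 and Per2 in both glands. By kallisto they took 95.8% of Per1 in replicate 2 and 96.3% in replicate 1. For Per3 they took only 42.8% in replicate 2 and 33.9% in replicate 1 by RSEM, and 55.1% and 42.3% by kallisto. Retained-intron transcripts of Per3 took 34.3% in replicate 2 and 40.5% in replicate 1 by RSEM, and those of Nr1d2 33.4% and 33.1%. By kallisto these shares were lower, at 27.6% and 36.3% for Per3 and 26.6% and 27.4% for Nr1d2, in the same order. For comparison by RSEM, 7342 detected coding genes have such a transcript annotated. The upper quartile of their retained-intron share was 24.6% in replicate 2 and 26.0% in replicate 1, and the median 12.1% and 13.1%. Arntl and Clock lay near that median, at 12.8 ± 0.750% and 14.9 ± 0.806% (SD, n = 2), and Dbp at 18.0% in replicate 2 and 11.6% in replicate 1.

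**Figure D4:**
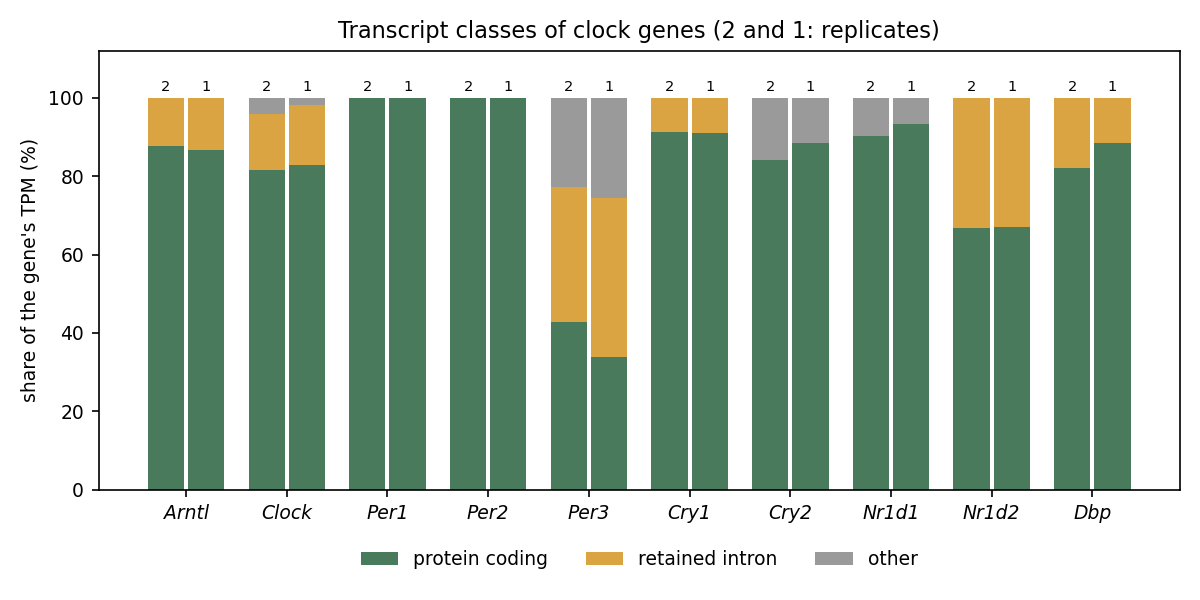
Share of each clock gene's TPM (percent), by the RSEM-format tables, in transcripts annotated as protein coding, retained intron or other. Replicate 2 is the left bar and replicate 1 the right bar. Per3 has the lowest coding share in both glands, at 42.8% and 33.9%.

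By RSEM, the leading transcripts of most genes were shared by both glands. Per2-201 took 100% of Per2, Nr1d1-201 took 90.3% of Nr1d1 in replicate 2 and 93.3% in replicate 1, and Cry1-201 took 91.2% and 91.0% of Cry1. Arntl-201 took 58.8% of Arntl in replicate 2 and 59.0% in replicate 1 by RSEM, and 46.9% and 55.4% by kallisto. Arntl-206, a coding transcript that starts 27158 bases downstream of the gene's start, took 26.3% in replicate 2 and 8.12% in replicate 1, from 85.0 and 43.0 counts. By kallisto its share was 35.4% in replicate 2 and 15.8% in replicate 1, so both quantifiers put it higher in replicate 2. Arntl-204, also coding, took 0% in replicate 2 and 15.7% in replicate 1 by RSEM, and 4.26% and 9.04% by kallisto. The leading transcript of Clock depended on the quantifier. It was Clock-205 by RSEM, at 38.5% in replicate 2 and 40.4% in replicate 1. By kallisto it was Clock-201, at 45.7% and 43.0%, with Clock-205 at 23.7% and 23.5%.

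Per1 was the gene whose structure was least settled. Per1-201, which starts at the upstream Per1 window printed above, took 56.8% of Per1 TPM in replicate 2 and 48.4% in replicate 1 by the RSEM-format tables. In the kallisto-format tables it took 9.79% in replicate 2 and 38.7% in replicate 1. The short Per1-204, of 496 bases, starts at the downstream window and took 24.5% of TPM in replicate 2 and 38.6% in replicate 1, but only 2.91% and 5.44% of the gene's counts. The effective length used for Per1 was accordingly 3330 bases in replicate 2 and 2808 bases in replicate 1. Summed over the 4 transcripts from the downstream starts, the share was 24.5% by RSEM and 69.0% by kallisto in replicate 2, and 38.6% and 46.8% in replicate 1. Of the 3 groups of starts, that of Per1-201 thus held the largest share by RSEM and the downstream group the largest share by kallisto, in both glands.

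**Figure D5:**
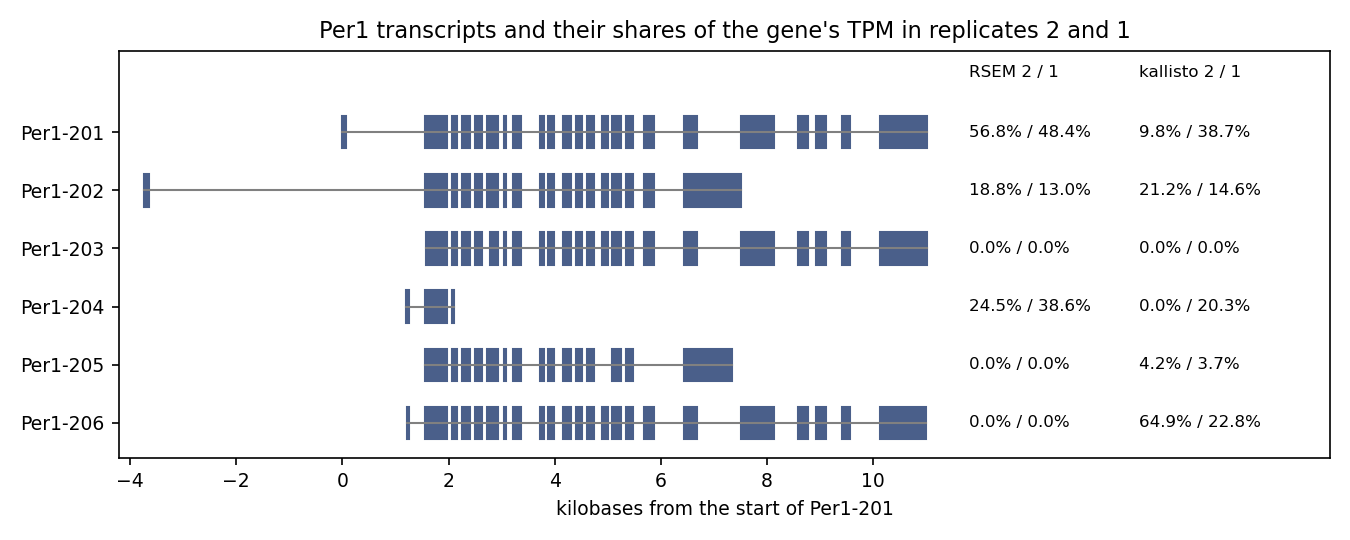
Exons (boxes) of the 6 annotated Per1 transcripts by distance in kilobases from the start of Per1-201, with each transcript's share of Per1 TPM in replicates 2 and 1 by the RSEM-format and kallisto-format tables. The large shares sit on Per1-201 and Per1-204 by RSEM and on Per1-206 by kallisto in replicate 2 (64.9%).

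Cry1 also depended on the split among transcripts. Its kallisto count was 237 in replicate 2 and 325 in replicate 1, lower in replicate 2 as by RSEM, but its kallisto TPM was 3.34 in replicate 2 and 3.08 in replicate 1. The 406-base retained-intron transcript Cry1-202 took 31.5% of that TPM in replicate 2 and 1.15% in replicate 1. The comparison of Cry1 between the glands therefore rests on its counts. By kallisto Dbp was again the highest gene, at 125.5 TPM in replicate 2 and 93.7 TPM in replicate 1, and Arntl, at 3.87 and 6.91 TPM, and Cry1 were again the lowest.

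Overlapping genes touch several members. Thra, which encodes the thyroid hormone receptor alpha, runs on the opposite strand and shares 263 exonic bases with Nr1d1, and Sphk2 shares 539 with Dbp, also on the opposite strand. The library kit is directional, per the labels, but the strand setting of the counting is not given in the sources used here, so reads in these bases cannot be assigned with certainty. Thra was 1.22-fold higher in replicate 2 (1.14 to 1.30), beside 1.09-fold for Nr1d1, and Sphk2 had a fold of 0.979 (0.901 to 1.06) beside 1.23 for Dbp. Per3 lies wholly inside Camta1 on the same strand without shared exonic bases, and the pseudogene Ube2n-ps1, at 50.3 TPM in replicate 2 and 63.3 TPM in replicate 1, lies in an intron of Clock. The antisense genes Gm45355 at Arntl and D930015M05Rik at Cry2 had at most 1 count in either library.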

How the data were processed

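Total RNA of the adrenal gland was sequenced in 2 animals of 1 group. The deposited gene and transcript tables hold expected counts (estimated, not normalized) and TPM under the column names RSEM writes, per the file headers. TPM were computed by the authors over all entries, spike-ins included. The deposited transcript tables also give each transcript's percent of its gene's TPM. A second quantification, deposited with kallisto's column names, gives estimated counts and TPM of the same transcripts. The text deposited with the tables names mm10 and GENCODE M21 and no tool versions.

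All 55536 gene identifiers matched GENCODE M21. The 96 ERCC spike-in entries and 26248 entries named by a bare number were left out of library sizes, with 0.238% of counts in replicate 2 and 0.243% in replicate 1 on entries that are not annotated genes. Counts were rounded for TMM factors (edgeR 4.0.16, R 4.3.3) and DESeq2 1.42.0 size factors, used for scaling only, and for intervals. Folds are ratios of TMM-scaled counts, replicate 2 over replicate 1 or its inverse where a gene was lower, with exact conditional binomial 95% intervals (scipy 1.17.1). Log2 ratios of CPM + 1 understate differences of genes with few counts. With 1 group of 2 animals no p-value was computed. Intervals cover counting error only and not the spread between animals. Without molecular identifiers a read is not an independent molecule, so the intervals can understate the counting error too.

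The members, gene lists, folds and thresholds were chosen with earlier results of these data known, and the motifs with the promoter sequences in view. The text names all 10 members, listed clock genes, genes overlapping a member, and mostly transcripts with at least 10 percent of a member's TPM. Promoter sequences are RefSeq's on GRCm38.p6. Alternatives were other scalings, kallisto values, posterior means, other count minimums and folds, and leaving out a replicate. The ratio of deposited TPM was added after the data were seen. Of the list of other clock genes, 2 are counted but not reported here.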

Additional observations from a re-analysis of the deposited data

How the results depend on the processing

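No paired analysis was possible because the samples form 1 group, so no 2 groups share replicate numbers; activators over repressors is a ratio within each animal. Without replicate 1 or replicate 2 the log2 ratio of activators over repressors was -0.57 and -0.32. With geometric means it was -0.89. The count of clock genes lower in replicate 2 was 3 (Arntl, Per2 and Cry1) under DESeq2, total-count and spike-in scaling. It was also 3 with kallisto or posterior mean counts and at lower count minimums, and 1 at 2-fold. In each of these settings 0 were higher. Of 12853 genes, 488, 427 and 385 were lower and 805, 904 and 985 higher under DESeq2, total-count and spike-in scaling. With posterior mean counts 470 were lower and 826 higher, and with kallisto 556 and 819 of 13268 genes. Over all genes, 309 were higher and 143 lower in replicate 2 at 2-fold, against 822 and 478 at 1.5-fold. With a mean of at least 10 counts 1668 were higher and 1283 lower of 18181 genes, and with no minimum 1978 and 1589 of 55499. The median log2 ratio of repressors was 0.0885 on the deposited TPM, against -0.06 with TMM. The median of all genes was also higher on the deposited TPM, at 0.11 against 0.01 with TMM, and the cause of these moves was not tested. Of the members' single values, 13 log2 ratios moved on the deposited TPM or with spike-ins, and 5 levels and 8 transcript shares with kallisto. Depth limits Arntl (362 and 634 counts in replicates 2 and 1) and Cry1 (224 and 314) most, and with 1 animal on each side the spread between animals is unknown.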

Other observations

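Per1 is a known target of glucocorticoids and of cAMP signalling, and other genes of those responses were measured beside it. Of 8 immediate early genes 7 had log2 ratios below 0, as had 6143 of all 12853 genes compared, with a summed level of 244.6 TPM in replicate 2 and 309.8 TPM in replicate 1. Fos, Fosb, Egr1, Nr4a1 and Dusp1 passed the 1.5-fold rule as lower in replicate 2, and Junb (1.31-fold lower) and Btg2 (1.15-fold lower) were short of it. Of all 12853 genes compared, 3.72% were lower by that rule. Jun was 1.08-fold higher in replicate 2 (1.06 to 1.11). At 157.6 TPM in replicate 2 and 134.1 TPM in replicate 1, Jun was the largest part of the summed level in each gland. Nr4a1, an orphan nuclear receptor induced by ACTH in cortical cells, stood at 17.9 TPM in replicate 2 and 78.4 TPM in replicate 1, and Fos at 4.93 and 13.7 TPM. Per1 was 13.9 TPM in replicate 2 and 16.2 TPM in replicate 1. By scaled counts its fold, replicate 2 over replicate 1, was 0.940 (0.870 to 1.01), an interval that included 1. The TPM of Per1 also depends on the effective length used, 3330 bases in replicate 2 and 2808 bases in replicate 1. By scaled counts, 2 of 6 glucocorticoid targets were higher and 4 lower in replicate 2. Of those lower, Fkbp5 (fold 0.987, 0.942 to 1.03) and Mt1 (0.951, 0.878 to 1.03) had intervals that included 1. On TPM both were higher in replicate 2, Fkbp5 at 40.9 there and 40.1 in replicate 1, and Mt1 at 89.35 and 87.3. Mt2 had a fold of 0.811 (0.740 to 0.890). The kinase gene Sgk1, with a fold of 0.569 (0.540 to 0.600), stood at 53.6 TPM in replicate 2 and 92.7 TPM in replicate 1. With 1 animal on each side these values have no replicate check.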
